A study of Caenorhabditis elegans with 2 samples.

Results

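The regions described here are the autosomal binding peaks of the nuclear hormone receptor NHR-85 that lie at promoters of protein-coding genes facing in a single direction. A peak was a member when its summit lay from 1000 bp upstream to 200 bp downstream of a transcript start of a protein-coding gene on 1 strand, with no coding start of the other strand meeting the same window. Of 2404 distinct intervals kept by an irreproducible discovery rate (IDR) threshold, 1886 were on autosomes and 757 of these were members (40.1%, 95% Wilson interval 37.95 to 42.4). The other autosomal intervals were 327 at divergent coding promoters, with starts on both strands, and 802 at no coding promoter. The members lay in the promoters of 726 of 17242 autosomal coding genes (4.21%), and the divergent peaks in those of 666 (3.86%).

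The samples were chromatin immunoprecipitations followed by sequencing from whole Caenorhabditis elegans hermaphrodites, in 2 biological replicates of 1 group. The strain, OP539, has the genotype unc-119(tm4063) III; wgIs539, and its integrated transgene makes NHR-85 with GFP and FLAG at the C-terminus. The precipitation used an antibody against GFP, although the antibody field of the labels reads nhr-85, and chromatin was sheared by sonication. Larvae were in the first larval stage (L1), synchronized by starvation after bleaching and taken 6 h later. Every sample carried the transgene, and the promoter that drives it is not stated in the labels. No second condition and no strain without the tag were analysed here, so peaks that any GFP precipitation would give cannot be told apart from those of NHR-85. The label gives no tissue, and binding in a few cells cannot be told apart from weaker binding in many. The files hold no read numbers, and library depth is unknown.

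Nuclear hormone receptors bind DNA through a pair of zinc fingers that read a short core hexamer, AGGTCA, or variants of it, and change transcription of nearby genes. NHR-85 is the nematode relative of the mammalian clock receptor Rev-Erb and takes part in the timing of larval development together with the receptor NHR-23. In Caenorhabditis elegans, many transcripts are trimmed at the 5′ end by trans-splicing, so an annotated transcript start can lie downstream of the place where transcription begins. At a promoter that faces in a single direction, the coding starts within the window are all on 1 strand, which is not so at a divergent promoter. The summit can still lie inside another coding gene.

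The sequences below are 101-bp windows centred on member summits, written 5′ to 3′ along the strand of the gene, from the RefSeq copy of WBcel235, which is the ce11 build. Windows that overlap an annotated exon are not printed. The opening set holds the strongest printable windows with the octamer AAACACGC, a word chosen after the sequences had been read. Capitals mark it on either strand, so it also appears as its reverse complement.
rpl-3 (chrIII:3867527-3867627, plus strand): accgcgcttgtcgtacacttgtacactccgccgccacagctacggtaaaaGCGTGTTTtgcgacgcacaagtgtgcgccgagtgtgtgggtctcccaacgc
rpl-35 (chrIII:7854627-7854727, plus strand): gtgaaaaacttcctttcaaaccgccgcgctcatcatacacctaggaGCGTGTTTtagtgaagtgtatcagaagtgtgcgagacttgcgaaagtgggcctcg
cdc-48.1 (chrII:10563523-10563623, minus strand): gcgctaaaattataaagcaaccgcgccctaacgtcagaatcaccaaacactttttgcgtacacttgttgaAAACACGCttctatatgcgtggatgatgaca
cox-5A (chrIII:12905152-12905252, plus strand): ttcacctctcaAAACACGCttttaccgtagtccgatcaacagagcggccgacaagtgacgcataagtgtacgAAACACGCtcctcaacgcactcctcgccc
The octamer occurred in 20 of 757 member windows (2.64%), in none of the windows 500 bp to either side, and in 6 of 327 divergent windows (1.83%). Members with it had a median pooled signal of 255.9, against 160.0 for the others, in the units of the peak caller. No test is given, because the word was picked from these windows. Windows were written out only for members ranked up to 60 by signal, so nothing is read from the difference in signal.

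The GA repeat, GAGAGA or its complement TCTCTC, was the most frequent motif at member summits, and these windows show how its length varied. Capitals mark every match.
Y24D9A.6 (chrIV:4401042-4401142, minus strand): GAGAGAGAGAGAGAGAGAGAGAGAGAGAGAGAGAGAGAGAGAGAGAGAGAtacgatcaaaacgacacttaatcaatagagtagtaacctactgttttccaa
zfp-1 (chrIII:8802109-8802209, plus strand): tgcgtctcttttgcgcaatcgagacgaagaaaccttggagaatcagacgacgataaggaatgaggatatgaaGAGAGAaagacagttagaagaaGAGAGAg
hsp-1 (chrIV:17278514-17278614, plus strand): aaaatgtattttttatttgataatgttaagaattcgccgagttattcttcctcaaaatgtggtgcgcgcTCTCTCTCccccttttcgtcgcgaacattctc
cbp-1 (chrIII:9765577-9765677, plus strand): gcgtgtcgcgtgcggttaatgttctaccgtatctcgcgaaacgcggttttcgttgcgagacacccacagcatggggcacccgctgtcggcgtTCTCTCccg
Upstream of Y24D9A.6 the repeat ran unbroken through the whole of the window that precedes the summit. In the zfp-1 window 2 separate matches were found, and in the cbp-1 window a single one, close to the end nearer the gene.

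The heptamer CTGCGTC, or GACGCAG on the other strand, is shown next with the GA repeat where both were present. Capitals mark both, and they can share letters, as in sec-61.G and fust-1.
eelo-2 (chrIV:17249862-17249962, plus strand): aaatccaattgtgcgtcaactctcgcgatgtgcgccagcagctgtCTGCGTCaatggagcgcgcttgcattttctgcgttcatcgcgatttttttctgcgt
ntl-11 (chrIV:15471552-15471652, minus strand): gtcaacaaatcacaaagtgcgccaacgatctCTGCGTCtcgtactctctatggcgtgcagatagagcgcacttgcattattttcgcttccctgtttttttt
sec-61.G (chrV:10897328-10897428, minus strand): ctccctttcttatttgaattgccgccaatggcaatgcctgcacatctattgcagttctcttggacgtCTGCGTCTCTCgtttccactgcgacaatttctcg
fust-1 (chrII:7152131-7152231, plus strand): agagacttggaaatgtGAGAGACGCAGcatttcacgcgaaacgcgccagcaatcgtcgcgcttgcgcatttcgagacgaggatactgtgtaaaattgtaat
jun-1 (chrII:9113002-9113102, plus strand): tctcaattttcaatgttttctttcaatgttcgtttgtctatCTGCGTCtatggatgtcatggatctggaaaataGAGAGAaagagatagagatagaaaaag
nhr-34 (chrIV:9670123-9670223, minus strand): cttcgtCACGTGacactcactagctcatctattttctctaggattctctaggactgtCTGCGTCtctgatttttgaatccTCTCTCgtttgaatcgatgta
The nhr-34 window held the heptamer, the GA repeat and the palindromic E-box CACGTG within the same 101 bp. The jun-1 window held the heptamer and the GA repeat apart from each other.

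The last set shows the less frequent motifs and windows with none of the marked words. Capitals mark the E-box in B0361.9 and, with a GA repeat, in F56H9.2. They mark the GC box GGCGGG, as its complement CCCGCC, in T07F10.3. In ifbp-1 they mark the receptor core AGGTCA, as its complement TGACCT, beside a GA repeat. The windows of tos-1 and cmtr-1 held none of these words. The tos-1 window did hold TATAAA, a word described further below, which is not marked.
B0361.9 (chrIII:7300255-7300355, minus strand): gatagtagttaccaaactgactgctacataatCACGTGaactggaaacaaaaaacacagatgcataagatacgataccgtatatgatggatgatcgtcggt
F56H9.2 (chrV:12637358-12637458, plus strand): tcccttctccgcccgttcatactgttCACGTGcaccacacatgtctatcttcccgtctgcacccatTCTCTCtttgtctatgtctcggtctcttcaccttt
T07F10.3 (chrV:12870074-12870174, minus strand): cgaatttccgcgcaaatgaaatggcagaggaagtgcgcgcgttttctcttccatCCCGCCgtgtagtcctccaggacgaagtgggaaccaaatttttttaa
ifbp-1 (chrV:13371509-13371609, minus strand): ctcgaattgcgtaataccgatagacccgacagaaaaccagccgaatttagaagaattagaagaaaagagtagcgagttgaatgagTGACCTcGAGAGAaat
tos-1 (chrV:9344283-9344383, minus strand): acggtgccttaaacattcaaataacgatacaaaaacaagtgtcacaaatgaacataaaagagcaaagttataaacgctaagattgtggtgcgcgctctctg
cmtr-1 (chrII:15025922-15026022, plus strand): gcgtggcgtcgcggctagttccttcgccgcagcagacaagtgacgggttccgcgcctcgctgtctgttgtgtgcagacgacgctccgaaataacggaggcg
A match describes the letters of the window and does not show that a factor binds there.

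Member summits lay mostly upstream of the annotated start. The nearest coding start was downstream of the summit for 719 of 757 members (94.98%, 93.2 to 96.3) and for 93.3% (90.02 to 95.5) of divergent peaks. The rule itself reaches farther upstream than downstream, so this share describes the members and nothing is read from it. The median distance was −260 bp, and the middle 50% of members lay between −516 and −142 bp. The 2404 strongest peaks of each replicate's own list were also classified by the rule. Their one-direction peaks had a median of −261 bp in replicate 1 (753 peaks) and −250 bp in replicate 2 (750 peaks). These sets are not the 757 members, so the values do not show how far the summit of a member moved. Divergent peaks had a median of −137 bp, which the class rule itself shortens, since the summit must lie near starts on both strands. By distance, 197 members (26.02%) lay 501 to 1000 bp upstream, 276 (36.5%) 201 to 500 bp upstream, 246 (32.5%) within 200 bp upstream and 38 (5.02%) at or past the start. The median pooled signals of these 4 groups were 150.5, 165.1, 166.6 and 139.4, so the groups differed little beside the spread of signals among members.

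**Figure D1:**
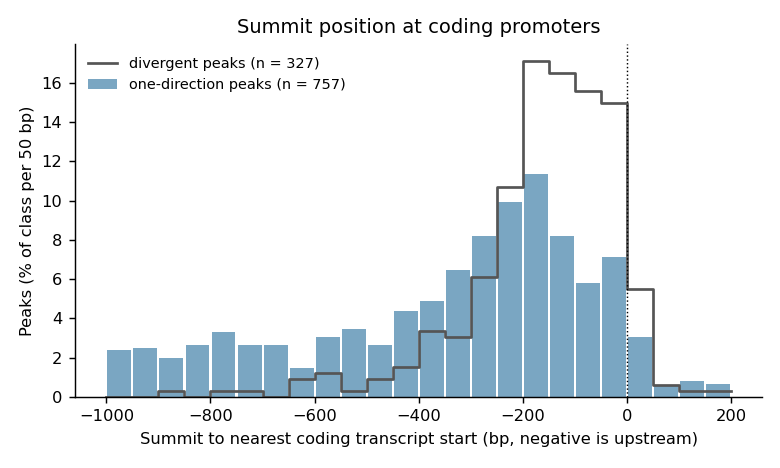
Distance from peak summit to the nearest coding transcript start in 50-bp bins, as a percentage of the 757 one-direction peaks (bars) and of the 327 divergent peaks (line). The one-direction peaks have a median of −260 bp and reach to −999 bp, while the divergent peaks have a median of −137 bp.

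Most members sat between genes. The summit was outside coding genes in 542 members (71.6%), in an intron in 155 (20.5%), in an untranslated exon in 50 (6.61%) and in a coding exon in 10 (1.32%). A later start of the same gene brought in 137 members (18.1%, 15.5 to 21), which lay more than 200 bp past its first annotated start, with a median of 2977 bp. Of these, 116 were in an intron, 17 in an untranslated exon and 4 in a coding exon. These 137 had a median pooled signal of 166.7, and the 620 at the first start had 160.5. The E-box was found in 15.3% (10.3 to 22.3) of the summits at later starts and in 6.94% (5.19 to 9.21) of those at first starts. The corresponding shares for the GA repeat were 31.4% (24.2 to 39.6) and 22.1% (19.01 to 25.5). These splits were described only, and the differences between them were not tested.

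The gene next upstream pointed the same way as the member's gene in 447 of 757 cases (59.05%, 55.5 to 62.5), against 9377 of 17237 autosomal coding genes (54.4%). The median gap to that neighbour was 1168 bp where it pointed the same way and 3617 bp where it pointed the other way. The rule favours the first arrangement, because a close neighbour in the other direction makes a promoter divergent. Members were spread evenly over the strands, with 384 (50.7%) on the plus strand, and over the autosomes, where they made up 37.3% to 42.4% of the intervals of each chromosome. A start of a non-coding RNA gene or pseudogene also met the window in 167 members (22.1%), most often of the general ncRNA class (96 members), piRNA (30) or snoRNA (27). Signal at these members cannot be assigned to the coding gene alone. In 49 members the summit lay inside another coding gene and not inside the gene of the nearest start, so their assignment is uncertain too.

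Members came from a list whose threshold rests on agreement between the replicates, with a signal from the pooled reads of both. Their presence in both replicates is therefore described and not read as a finding. At one-direction promoters the threshold coincided with a cut on pooled signal. The weakest member had 97.17, and the strongest peak left out had 97.14. Members were thus not each selected for a peak in both replicates. Replicate 1 overlapped 756 of the 757 and replicate 2 overlapped all of them, by at least 1 bp. The exception was a peak 181 bp upstream of T26G10.1 (chrIII:9406607-9407036), which had a signal of 64.3 in replicate 2, a pooled signal of 100 and no overlapping peak in replicate 1. The divergent class had both replicates at 327 of 327 and the class with no coding promoter at 802 of 802 as well. Signals of members had a median of 81.1 in replicate 1, from 27.6 to 646.9, and of 80.2 in replicate 2, from 18.9 to 639.1. The pooled list gave a median of 160.7, with quartiles of 120.3 and 242.0 and a range from 97.2 to 1288. The pooled signal was close to the sum of the replicate signals, with a median ratio of 1.004.

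The replicates differed more at weak members than at strong ones. The log2 ratio of replicate 1 to replicate 2 had a mean of 0.02 and an SD of 0.41 over 756 members, and it was within 0.5 of equality in 619 (81.9%). In the 189 strongest members its SD was 0.23, and in the 189 weakest it was 0.53. The 5 members with the lowest ratios had values from −1.54 to −1.21, and the 5 with the highest had values from 1.36 to 2.13. Each member was paired with the overlapping replicate peak of nearest summit. Pairing it with the strongest overlapping peak instead gave an SD of 0.36 over members and narrowed the range to −1.41 to 1.17. The SDs of the 189 strongest and 189 weakest members were not computed with that pairing. Across members, Pearson's r of the log2 signals was 0.857, a description over peaks that share their 2 libraries. Of the members, 662 (87.5%) had the same width of 430 bp, and the strongest of that width ranked 42 among them.

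**Figure D2:**
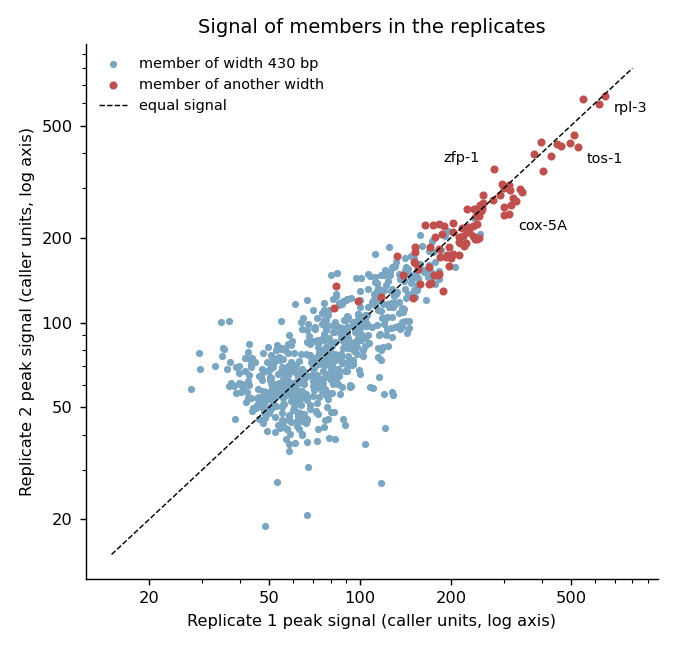
Peak signal of 756 members in replicate 1 and replicate 2, in the units of the peak caller on log axes, with a dashed line of equal signal. Members of the common width of 430 bp (blue) are mostly the weaker ones and scatter more about the line than members of other widths (red), among which are rpl-3, tos-1, zfp-1 and cox-5A.

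Motifs were then compared between the summit and its own flanks, since the rule for members used no sequence. In total 11 motifs were tested, on both strands. The core words TAGGTCA and AAGGTCA contain AGGTCA, and their matches are therefore also counted there. For every motif, the exact McNemar test compared each summit window with the windows 500 bp further upstream and 500 bp towards the gene, the larger of both p-values was kept, and these were adjusted by Benjamini-Hochberg over the 11. The units of these tests are peaks, not samples. The motifs were chosen with earlier results of these peaks known, so the p-values are not independent evidence.

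The GA repeat was present in 180 of 757 summit windows (23.8%, 20.9 to 26.9), in 5.81% of windows further upstream and in 5.02% of those towards the gene (exact McNemar test, adjusted p = 2.00e-22). Over 17242 windows of the same length, placed 260 bp upstream of the first start of every autosomal coding gene, it was present in 5.99%. The heptamer CTGCGTC was found in 11.8% of member summits (9.65 to 14.3), in 1.19% and 0.661% of the flanks, and in 1.31% of the windows of all genes (adjusted p = 2.02e-17, exact McNemar test). The E-box CACGTG, which basic helix-loop-helix proteins are known to read, was found in 8.45%, with 3.44% and 1.19% in the flanks and 1.61% over all genes (adjusted p = 0.000112, exact McNemar test). These 3 words were all more frequent at the summits than in either flank.

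The core AGGTCA itself was found in 48 members (6.34%, 4.82 to 8.31), against 2.77% further upstream, 2.11% towards the gene and 2.54% over all genes (adjusted p = 0.0020, exact McNemar test). The longer forms were rare. TAGGTCA occurred in 7 members (0.925%) and AAGGTCA in 16 (2.11%), and neither passed the test, with adjusted p of 1 and 0.208 in the exact McNemar test. The GC box GGCGGG was found in 5.81% of summits and in 1.45% and 1.32% of the flanks (adjusted p = 5.60e-06, exact McNemar test). The T-tract TTTTTTTT was less frequent at summits, at 4.23%, than in the flanks, at 11.2% and 11.6% (adjusted p = 1.39e-06, exact McNemar test). The TATA-like word TATAAA was also less frequent, at 5.81% against 12.7% and 8.98% (adjusted p = 0.0393, exact McNemar test). That call was lost without replicate 2 (adjusted p = 0.120) and with 100 bp to each side of the summit (adjusted p = 0.284), by the same exact test. The GATA site TGATAAG and the AP-1 site TGACTCA did not pass, with adjusted p of 0.715 and 1 in the exact McNemar test.

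Base composition moved with these counts. Summit windows had a GC content of 44.5% ± 7.95 (SD over 757 windows), windows further upstream 35.2% ± 8.42 and windows towards the gene 37.4% ± 9.45. The part of base composition in the motif differences was not tested. At least 1 of the GA repeat, the heptamer, the E-box and the GC box was present in 296 members (39.1%, 35.7 to 42.6), against 11.6% and 7.79% of the flanks and 10.05% of the windows of all genes. The GA repeat and the heptamer were both present in 42 members (5.55%). Matches of the GA repeat ran along the strand of the gene in 72 members and against it in 117, and some members had both.

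**Figure D3:**
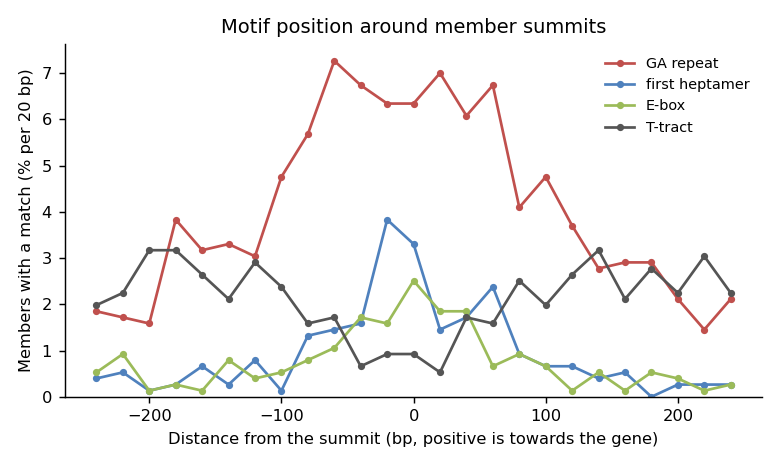
Share of the 757 members with a match of the motif in bins of 20 bp around the summit, with positive distances towards the gene, for the GA repeat, the heptamer CTGCGTC (first heptamer), the E-box and the T-tract. The GA repeat, the heptamer and the E-box are highest around the summit and the T-tract is lowest there.

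Members were next set against the 327 divergent peaks with the same windows, by Fisher's exact test adjusted over the 11 motifs. The GA repeat was more frequent in members, at 23.8% against 15.3% (11.8 to 19.6) of divergent summits (adjusted p = 0.0093, Fisher's exact test). The E-box was more frequent too, at 8.45% against 3.36% (1.89 to 5.92; adjusted p = 0.0093, Fisher's exact test). The core AGGTCA was found in 6.34% of members and in 8 divergent peaks (2.45%, 1.25 to 4.75; adjusted p = 0.0249, Fisher's exact test). With windows reaching 25 bp to each side in place of 50 bp, and in the stronger intervals alone, 0 of the 11 motifs passed this test and 4 had an unadjusted p under 0.05 in Fisher's exact test. The differences in the stronger intervals were 9.93 percentage points for the GA repeat, 5.11 for the E-box and 4.14 for AGGTCA, against 8.49, 5.09 and 3.89 over all members. With 25 bp they were 5.65, 3.19 and 2.78. With 100 bp to each side, 5 motifs passed: these 3, CTGCGTC (6.47 points, adjusted p = 0.0203) and TGATAAG (4.11 points, adjusted p = 0.0097, Fisher's exact test). Without replicate 1, the difference of the E-box was 3.31 percentage points in place of 5.09 and no longer passed (adjusted p = 0.146, Fisher's exact test).

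With 50 bp to each side, the other motifs gave no call between the classes. The heptamer CTGCGTC was at 11.8% in members and 7.65% in divergent peaks, with intervals of 9.65 to 14.3 and 5.23 to 11.04 (adjusted p = 0.142, Fisher's exact test). The GC box was at 5.81% in both. Mean GC content of the divergent summits was 46.2% ± 7.49, above that of the members, and its part in these differences was not tested. Signal was compared in the same way: 373 members (49.3%, 45.7 to 52.8) were above the median signal of autosomal intervals, 162.1, and 180 divergent peaks were (55.05%, 49.6 to 60.4). This difference did not pass the test (p = 0.0855, two-sided Fisher's exact test).

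**Figure D4:**
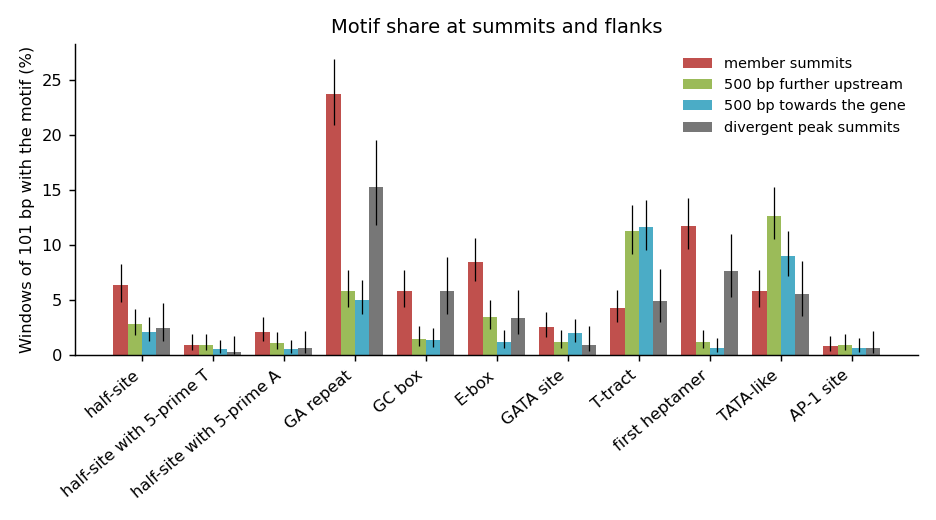
Share of 101-bp windows that hold each of the 11 motifs, at member summits, in windows 500 bp further upstream and 500 bp towards the gene, and at divergent peak summits, with 95% Wilson intervals as error bars. The GA repeat reaches 23.8% at member summits and is at most 5.81% in the flanks.

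Further words were noticed in the summit windows and are given as values only, with no test. GAGACGC, which shares letters with the complement of CTGCGTC, was found in 12.3% of members, in 1.45% and 0.528% of the flanks and in 7.34% of divergent summits. AAACGCG was found in 7.13% of members and in 11.3% of divergent summits. CGCCAGC was found in 41 members (5.42%), which had a median pooled signal of 204.9 against 159.1 for the rest. Because the word was noticed in these windows, nothing is read from that difference in signal. By distance, CGCCAGC was found in 1.02% (0.279 to 3.63) of summits 501 to 1000 bp upstream and in 8.54% (5.65 to 12.7) of those within 200 bp upstream. The GA repeat stayed between 22.4% and 26.3% in all 4 distance groups.

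The 25 strongest members had pooled signals of 552.7 and above, and all were found in both replicates. In them the replicates differed by at most 0.36 on the log2 scale. Summits were outside coding genes in 17, in an intron in 6 and in an untranslated exon in 2, and 10 lay on chromosome V. The GA repeat was found in 10 of the 25, the heptamer in 4, the E-box in 2, the GC box in 2 and the core AGGTCA in 1. The strongest were at rpl-3, dmd-7, Y24D9A.6, rpl-35, tos-1 and ifbp-1, with pooled signals from 929.7 to 1288.

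Several of the next members were at genes with widely used cell functions. The peak 166 bp upstream of cdc-48.1 (chrII:10563433-10563707), which encodes an AAA ATPase that extracts proteins for degradation, had signals of 463.5 in replicate 1 and 425.0 in replicate 2. The peak upstream of sec-61.G (chrV:10897234-10897519), for a subunit of the channel that moves proteins into the endoplasmic reticulum, had 397.0 and 439.4, and its summit also met the window of F32D8.13. The replicates thus ranked these in opposite orders.

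A peak 286 bp upstream of lgg-2 (chrIV:10936076-10936349), a gene of the LC3 family that acts in autophagy, had signals of 343.4 and 290.5. At aakg-5 (chrII:9975028-9975256), which encodes a regulatory subunit of AMP-activated kinase, the summit was 1 bp past the start and the signals were 295.7 and 310.3. The peak 289 bp upstream of cox-5A (chrIII:12905073-12905296), for a subunit of cytochrome c oxidase, had 312.6 and 243.2, the largest log2 difference between replicates among the 25. Its window held the octamer on the same strand in 2 places.

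Other members of the 25 were at genes of gene expression. The peak 142 bp upstream of cmtr-1 (chrII:15025853-15026107), for an mRNA cap methyltransferase, had 316.7 and 262.3. The peak at his-37 (chrV:9546907-9547129), a histone H4 gene, had 275.0 and 273.4. Histone genes have near-identical copies, but its summit window occurred once in the genome; how reads were placed was not tested.

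The rest of the 25 were at egg-5, for a pseudophosphatase of the oocyte-to-embryo transition (pooled signal 883.8), Y43F8B.2 (811.4), F55H12.7 (776.1), H41C03.3 (747.1), T28B11.1 (626.3), ZK6.8 (623.7), eelo-2 (607.9), the zinc finger genes ztf-7 (603.2) and ccch-1 (597.7), and the cytochrome P450 gene cyp-13A2 (574.6). Members zfp-1 and cbp-1 are given with the chromatin genes.

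Of all genes, 4 had 3 or more member peaks. The mnk-1 gene, for a kinase that acts downstream of MAP kinases, had 4, in overlapping pairs at separate starts. The pair at the first start had pooled signals of 314.6 (replicates 175.5 and 147.8) and 180.2 (81.1 and 98.2), and the pair at a later start had 178.7 (86.1 and 91.7) and 119.2 (35.1 and 81.1). C39E9.8 had 3, with pooled signals of 238.6, 160.4 and 137.3. Y65A5A.2 had 3 at the same later start, with 318.9, 202.8 and 183.7, and Y43F8B.2 had 3, with 811.4, 170.5 and 112.2. Peaks at the same gene are not independent, and 29 members overlapped a stronger member.

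Gene lists were counted next, as the share of their autosomal genes with a member at the promoter, beside the 4.21% over all autosomal coding genes and the 3.86% for divergent peaks. No test was made on the lists, and nothing is called particular to any of them. The lists were written by hand, and several small ones have wide intervals. They are not complete, so a count or a strongest gene holds only for the genes listed. Members on none of the lists included the DNA replication gene pcn-1 (pooled signal 485.9), the bZIP gene jun-1 (454.8) and the splicing gene mog-4 (439.1).

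Ribosomal protein genes had members at 17 of 78 (21.8%, 14.1 to 32.2) and divergent peaks at 31 (39.7%). After rpl-3 and rpl-35 the strongest were rps-28, with signals of 207.2 and 157.5 in the replicates and a pooled signal of 370.8, and rpl-24.2, with 173.0 and 146.5 and a pooled signal of 321.9. All 17 summits lay between 154 and 457 bp upstream of the start, and the pooled signals ran down to 103.8 at rpl-13. The GA repeat was in 4 of the 17, the heptamer CTGCGTC in 2 and the octamer AAACACGC in 2. Translation factors had members at 4 of 37 (10.8%), led by eif-3.B (pooled signal 383.8; replicates 191.4 and 203.6) and eif-3.C (363.2; 170.6 and 185.6), subunits of an initiation factor.

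For several other lists of housekeeping genes, more genes had a divergent peak than a member. These are counts of genes, and a divergent peak counts at genes of both strands: 327 divergent peaks met the promoters of 666 genes. The share of divergent promoters in each list is not given here. Splicing factors had members at 2 of 42, snr-4 and rsp-6, and divergent peaks at 11. Chaperone genes had members at 7 of 62 and divergent peaks at 14. The strongest was hsp-1, a constitutive Hsp70 (chrIV:17278490-17278665), with signals of 253.2 and 259.1, followed by dnj-9, for a DnaJ protein, with 167.1 and 152.2. Respiratory chain genes had members at 4 of 45, cox-5A, cox-5B, cox-6A and cyc-1, and divergent peaks at 9. Proteasome subunits had members at 2 of 33, rpn-11 and pas-5, and divergent peaks at 6. Small GTPases, Sec and coat proteins had 3 of 56 and 10, and the vacuolar ATPase had 0 of 18 and 2. Histone genes had 3 of 76 and 13, and aminoacyl-tRNA synthetases had 1 of 35, kars-1, and 5.

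In the transcription factor lists, more genes had a member than a divergent peak. Nuclear hormone receptor genes had members at 23 of 247 (9.31%, 6.29 to 13.6) and divergent peaks at 5 (2.02%). With only the most upstream start of each gene, 16 of the 247 had a member. The median pooled signal at the 23 genes was 135.5, below the 160.7 of all members, and only the strongest are named here. The strongest was nhr-34 (chrIV:9670101-9670315), with signals of 226.8 and 209.1, whose summit lay in an intron, 978 bp upstream of a later start and 5499 bp past the first. A second nhr-34 member, in a coding exon, had 140.4 and 145.8. It was followed by nhr-87 (192.3 and 171.5), nhr-21 (183.5 and 171.6) and nhr-119 (151.8 and 186.1). Genes for bHLH, bZIP and GATA factors had members at 9 of 51 (17.6%, 9.57 to 30.3) and a divergent peak at 1. When only the most upstream start of each gene was used, a choice made after seeing the data, 2 of the 51 had a member. The strongest of this list was elt-1 (chrIV:9615601-9615721), the GATA factor of the epidermal fate, with 200.8 and 169.8 at a later start. It was followed by zip-2 (120.9 and 154.0), hlh-11 (130.6 and 159.1) and atf-7 (106.3 and 131.1). The list did not hold jun-1, another bZIP gene, whose member was stronger than that of elt-1, with 249.2 and 205.6. Homeobox genes had members at 4 of 61. The Hox genes ceh-13, lin-39 and mab-5 had pooled signals of 184.6, 152.3 and 103.2, and ceh-20, for a Pbx cofactor, had 174.3.

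Chromatin regulators had members at 7 of 32 (21.9%, 11.02 to 38.8) and divergent peaks at 4. The zfp-1 gene, the relative of human AF10, had a peak in an intron (chrIII:8801891-8802390), 660 bp upstream of a later start and 10624 bp past the first, with signals of 278.7 and 351.1. A weaker member at the same gene had 219.7 and 202.8. The cbp-1 gene, the CBP and p300 acetyltransferase (chrIII:9765498-9765748), had 315.4 and 296.8 at 882 bp upstream. Next were egl-27 (94.4 and 100.5), the relative of the metastasis-associated NuRD subunits, and set-2 (64.8 and 65.9), a histone H3 lysine 4 methyltransferase. The upper pair was thus well above the rest of the list.

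Genes of timing and molting were few in number. Heterochronic protein genes had members at 2 of 14 and divergent peaks at 3, and the members were lin-28 (140.5 and 153.5), which keeps early larval cell fates by binding RNA, and lin-66 (55.95 and 51.5). Molting and oscillation regulators had members at 4 of 19, or 2 with the most upstream start only, and no divergent peak. The strongest was myrf-1, a membrane-bound transcription factor (chrII:10502657-10502832), with 164.6 and 222.3. The nhr-23 promoter, of the receptor that acts with NHR-85, had 74.8 and 57.2, with the summit in an intron, 10 bp upstream of a later start and 2029 bp past the first. The others were nhr-41 (78.2 and 53.7) and noah-1 (42.9 and 65.2), a cuticle-shaping protein of the apical matrix. The signals of nhr-23, nhr-41 and noah-1 were below the member medians in both replicates.

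Signalling lists gave small counts, and with the most upstream start only the insulin and the MAP kinase lists fell to 1 gene each and the TGF-beta list rose to 1. Insulin and starvation genes had members at 3 of 17, with pooled signals of 227.5 at skn-1, 209.6 at hlh-30 and 107.9 at daf-16, which are transcription factors of stress and nutrient responses. MAP kinase genes had 3 of 18, mnk-1, pmk-2 and vhp-1, and Wnt and Notch genes had 3 of 26, wrm-1, lit-1 and sys-1. The TGF-beta list had none of 15. Cell cycle genes had 2 of 34, fzr-1 and mcm-4, with pooled signals of 123.9 and 120.3.

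Among genes of the body surface and of metabolism, cuticle collagens had members at 11 of 146 (7.53%, 4.26 to 13.0), led by col-10 (132.3 and 173.0) and col-103 (106.5 and 148.5). The next, col-159 and col-160, shared a peak (124.2 and 116.1), so the 11 genes stand for 10 peaks. Hedgehog-related and patched-related genes had 7 of 72 (9.72%, 4.79 to 18.7) and no divergent peak, led by ptr-6 (120.3 and 130.5), grd-3 (115.4 and 120.6) and grd-10 (89.3 and 82.7). Fatty acid genes had 7 of 71, led by lbp-9 (96.9 and 85.3), a lipid-binding protein, elo-1 (93.17 and 83.03), an elongase, and fasn-1 (90.6 and 83.3), the fatty acid synthase. Actin, tubulin and adherens genes had 3 of 35, tba-2 (197.3 and 186.0), vab-10 and act-2.

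Counts in the tissue lists were small, and their Wilson intervals overlapped. The seam and hypodermis list had members at 4 of 16 (25%, 10.2 to 49.5), elt-1, vab-10, grd-10 and nhr-23, which are also counted above. With the most upstream start only, this count was 1. Intestine genes had 1 of 20 (5%, erm-1), neuronal genes 1 of 21 (4.76%, snb-1) and germline genes 1 of 35 (2.86%, cgh-1). Body wall muscle and pharynx genes had 0 of 20 and 0 of 12. With lists of this size, a share of up to 16.1% in muscle and 24.3% in pharynx lies within the Wilson interval. Shares in some large families were below that of all genes. Chemoreceptor genes had members at 4 of 1222 (0.327%, 0.127 to 0.839), or 2 with the most upstream start only. F-box and MATH-BATH genes had them at 3 of 395 (0.759%, 0.259 to 2.21) and C-type lectins at 0 of 237. Cytochrome P450 and UGT genes had members at 4 of 130 (3.08%, 1.20 to 7.64), an interval that holds the 4.21% of all genes.

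**Figure D5:**
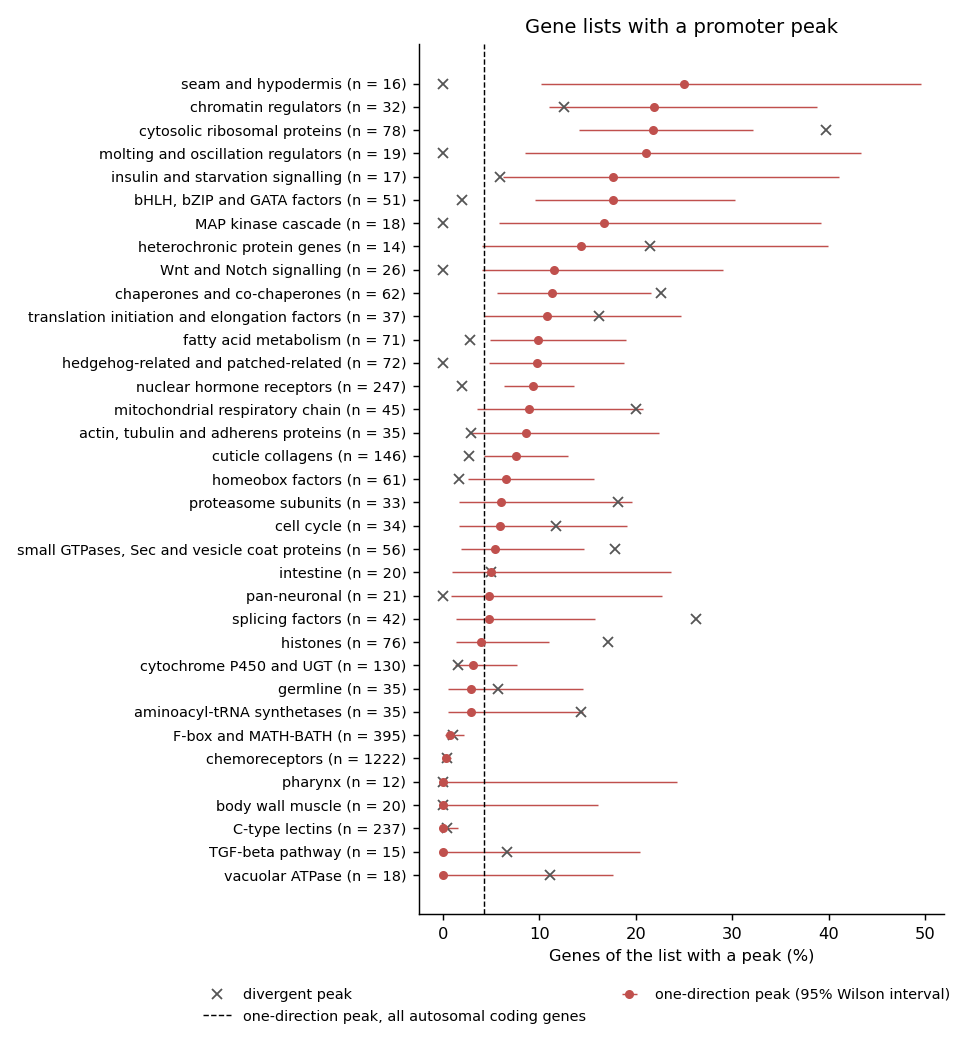
Percentage of the autosomal genes of each list with a one-direction peak at the promoter (points with 95% Wilson intervals) and with a divergent peak (crosses), beside the 4.21% of all autosomal coding genes with a one-direction peak (dashed line). Ribosomal protein genes lie at 21.8% for one-direction and 39.7% for divergent peaks, while nuclear hormone receptors lie at 9.31% and 2.02%.

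The edges of the rule cut through continuous values. The weakest members were at gly-6 (pooled signal 97.17), sao-1 (97.18) and F22B7.9 (97.25), and the strongest peaks at one-direction promoters that did not pass the IDR threshold were at F36D4.5 (97.14), F17C11.26 (97.13) and Y38C1AA.1 (97.06). The farthest members were at otub-2 and nhr-62, both at −999 bp, and C48E7.1 at −997 bp, and the nearest peaks beyond the window were at his-8 (−1004 bp), acer-1 (−1009 bp) and T19C4.24 (−1014 bp). The window of the summit occurred once in the genome for 754 members and more than once for 3. A single member, at athp-1 near unc-119, lay within 40 kb of the genes carried by the transgene.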

How the data were processed

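The peak lists were called by the authors for each replicate and for the pooled reads, against a control alignment, per the file descriptions, and the ce11 list that passed the IDR threshold was used. The deposited signal of a peak is in the units of the peak caller, and the deposited summit offset is the authors' position of the highest point. The sources used here do not give the aligner, the caller, its settings or the depth. Signals only rank or describe peaks within a list.

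Starts came from Ensembl release 115 and sequence from RefSeq (both WBcel235). A replicate's signal is that of the overlapping peak with the nearest summit. Of 2410 lines, 6 repeated an interval and the stronger summit was kept. Motifs were compared by exact McNemar and Fisher's exact tests with Benjamini-Hochberg adjustment (threshold 0.05), in Python 3.11.15, numpy 2.4.6, pandas 2.3.3 and scipy 1.17.1, and the steps were tested on simulated data. Wilson intervals cover counting error only. Peaks are not independent, so p-values describe peaks in these 2 libraries and not new animals.

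Named genes are the 25 strongest members, up to 4 of each of 35 lists, genes with 3 or more members, and others chosen after their values were seen where a list is given in full, an edge is described or a sequence is shown. The members, lists and motifs were chosen with earlier results of these data known. Alternatives were the promoter window, the transcript starts, the motif window and flank, the overlap, the stronger intervals and each replicate alone. A replicate alone means the 2404 strongest peaks of its own list, classified by the same rule.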

Additional observations from a re-analysis of the deposited data

How the results depend on the processing

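The members numbered 757, and 642 when only the most upstream start of each gene was used, a choice made after seeing the data. Taking the stronger intervals alone left 376 members at 377 genes, with 96.5% of summits upstream of the start, against 96.4% with a window of 2000 bp and 94.98% as reported. With a reciprocal overlap of 50%, 93.5% of members had a peak in both replicates, in place of 99.9%. The number of motifs that differed between one-direction and divergent peaks was 3, and it was 0 in the stronger intervals (where fewer peaks were tested), 0 with 25 bp and 5 with 100 bp to each side of the summit. Leaving out a replicate, with the other cut to its 2404 strongest peaks, gave 750 to 753 members and 712 to 725 genes. These counts were partly set by that cut and do not measure stability. In the same setting, 2 to 3 motifs differed between the classes and 6 to 7 differed from the flanks. Of 88 motif results against the flanks under the alternatives, 86 stayed on their side of the threshold and 2 lost the call. Of 77 against divergent peaks, 68 stayed, 7 lost the call and 2 gained it. The 7 losses all fell on the 3 motifs with a call, and only these could lose one. The 68 of 77 therefore do not measure how stable the calls were. Among motifs with no call, some small differences turned sign. Counts of gene lists stayed within 1.5 times in 265 of 315 cases, and with the most upstream start only the bHLH, bZIP and GATA list fell from 9 to 2 and the seam and hypodermis list from 4 to 1. The difference in signal between the classes did not pass Fisher's exact test under any alternative that gave a value (p from 0.0522 to 0.145). No paired analysis was possible because the 2 replicates form 1 group. Replicate signals spread most at weak members; depth is unknown, and its part was not tested.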
